A study of Homo sapiens with 24 samples.

Results

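Spheroids of SAS, a human squamous carcinoma cell line from the tongue, were grown in culture and either heated at 42.5 °C for 60 min without irradiation (hyperthermia, HT) or left at 37 °C (Control), and their total RNA was taken 0.5 h later for RNA-Seq. The comparison described here is HT alone against Control, with 3 replicate libraries in each group, chosen by the sample labels from the 24 libraries of the series, so that it uses 6 of them. Each replicate is an independent experiment per the study's methods. SAS libraries with RT at 10 Gy, with and without HT, and spheroids of the pharyngeal carcinoma line FaDu serve only to show whether the heat effect differed under irradiation or between lines. The question is which genes heat by itself moved within this short time, those that fell included.

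Cells answer heat with the heat shock response. Proteins that unfold draw chaperones away from heat shock factor 1 (HSF1), which then forms trimers, binds heat shock elements made of inverted nGAAn units near gene starts, and raises transcription of chaperone genes within minutes. HSP70 proteins bind unfolded stretches, J-domain proteins bring them their clients, HSP110 and BAG proteins exchange their nucleotide, small heat shock proteins hold aggregates apart, and HSP90 folds kinases and receptors, while transcription of many other genes is held back during heat.

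The 3 Control libraries held 19645956, 18201500 and 17797336 counts in genes, and the 3 HT libraries 18976390, 20811396 and 20399019. Depth was alike in both groups, but the number of genes with at least 1 count was higher after heat, at 23843, 23565 and 24005 against 21791, 22021 and 22441. On the first principal component over the 12 SAS libraries, which held 64.6% of the variance, all 6 heated libraries lay on one side and all 6 unheated ones on the other, and the next component, with 6.75%, set replicate 3 of every group apart from replicates 1 and 2. Levels are given in CPM, the count as a fixed share of the library's TMM-scaled total, means carry the SD over n = 3 libraries, and a lone number in brackets after a gene is its log2 fold change of HT over Control. A gene rose or fell where the edgeR adjusted p was under 0.05, and it was altered where the log2 fold change was also beyond 1 in either direction.

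After heat a part of the cytosolic chaperones and a set of genes near silence in Control rose by the largest factors, while a broad set of well expressed genes fell by small ones. Of 15000 genes tested, 904 (6.03%) were altered, 797 upward (5.31%) and 107 downward (0.713%). With glmTreat, which tests against a log2 fold change of 1 itself, 382 were upward and 11 downward. Many genes altered upward and most altered downward thus lay too close to that fold to be told from it. At the adjusted p alone 3540 genes (23.6%) passed, 1823 upward (12.2%) and 1717 downward (11.4%). The median log2 fold change was 0.84 for the 1823 and -0.39 for the 1717, so the falling side was about as wide as the rising side but shallower. Among genes altered upward 358 had a log2 fold change over 2, 189 over 3 and 56 over 5, whereas among those altered downward 4 lay under -2 and 15 under -1.5. Which side is wider depends on the scaling, since 51.5% of the genes past the adjusted p were higher with TMM, 34.2% with library size only and 57.8% with upper quartile factors. It also depends on the replicate number, since with it as a block 2193 genes were higher and 2220 lower.

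**Figure D1:**
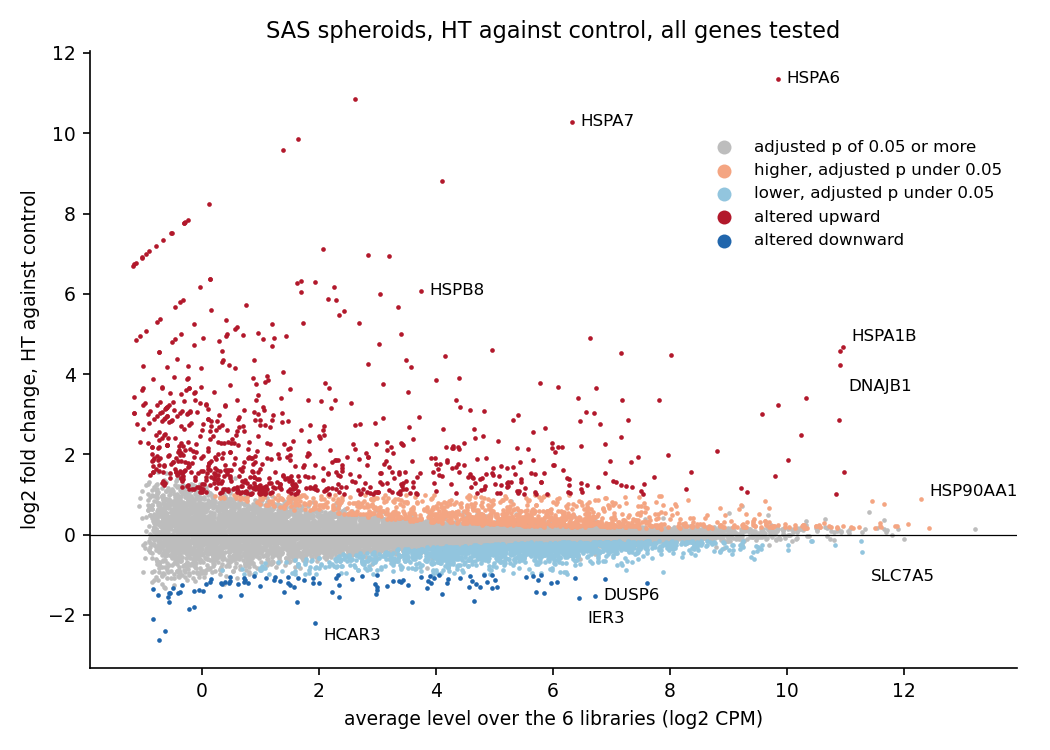
Average level over the 6 libraries (x axis, log2 CPM) against log2 fold change of HT over Control (y axis) for the 15000 genes tested, coloured by call. The 797 genes altered upward reach 11.36 (HSPA6) and crowd toward low levels, the 107 altered downward stay close to the threshold, and lower genes at adjusted p alone spread over the middle and high levels.

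The change in share of all counts was less evenly spread on the rising side than on the falling side. Genes altered upward took 1.09 ± 0.0292% of counts in Control and 5.18 ± 0.285% after heat (SD, n = 3). Summed over genes past the adjusted p, the gain was 78600 CPM, of which the 10 largest gains made 32.7%, led by the chaperone genes HSPA1B, HSPA1A and DNAJB1 with 3680, 3530 and 3460 CPM. The loss of -33500 CPM was spread thinly, with 9.06% in its 10 largest, led by SLC7A5, a transporter of large neutral amino acids, at -767 CPM.

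The promoters of several of these chaperone genes hold the letters of the heat shock element, and 6 with the letters in the bases printed are shown, as examples of where they lie. Those of HSPH1 and BAG3, which also rose, held neither form. The sequences are the 150 bases before the gene start from RefSeq on GRCh38.p14, written 5′ to 3′ on the strand of the gene. Capitals mark the letters GAANNTTCNNGAA or TTCNNGAANNTTC (3 units) where they occur and otherwise GAANNTTC or TTCNNGAA (2 units), on either strand.
HSPA6, chr1:161524390-161524539, plus strand: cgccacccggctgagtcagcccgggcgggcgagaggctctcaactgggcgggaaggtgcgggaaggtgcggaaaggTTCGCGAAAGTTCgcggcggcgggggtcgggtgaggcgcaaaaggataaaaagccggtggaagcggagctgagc
SERPINH1, chr11:75562103-75562252, plus strand: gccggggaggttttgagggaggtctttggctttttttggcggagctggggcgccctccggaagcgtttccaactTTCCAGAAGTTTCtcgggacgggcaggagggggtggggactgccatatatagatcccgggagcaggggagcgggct
HSPA8, chr11:123062137-123062286, minus strand: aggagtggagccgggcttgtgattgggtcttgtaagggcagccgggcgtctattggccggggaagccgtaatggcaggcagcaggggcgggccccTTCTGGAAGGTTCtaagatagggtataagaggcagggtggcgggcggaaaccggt
HSPA1A, chr6:31815393-31815542, plus strand: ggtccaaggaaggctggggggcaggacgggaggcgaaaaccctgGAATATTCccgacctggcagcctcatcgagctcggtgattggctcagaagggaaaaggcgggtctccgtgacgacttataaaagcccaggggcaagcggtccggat
HSPA1B, chr6:31827588-31827737, plus strand: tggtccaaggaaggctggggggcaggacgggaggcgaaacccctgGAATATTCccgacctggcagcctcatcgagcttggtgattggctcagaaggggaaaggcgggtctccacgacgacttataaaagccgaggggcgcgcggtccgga
DNAJB1, chr19:14518398-14518547, minus strand: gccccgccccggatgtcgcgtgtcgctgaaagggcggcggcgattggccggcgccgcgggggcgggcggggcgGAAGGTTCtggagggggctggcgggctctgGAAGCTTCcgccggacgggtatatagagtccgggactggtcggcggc

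The 3-unit letters lie at -74 from the start of HSPA6, at -76 from that of SERPINH1 and at -55 from that of HSPA8. In HSPA1A and HSPA1B the 2-unit letters GAATATTC lie at -106 and -105, in a stretch that both copies share apart from scattered bases, and DNAJB1 has them at -77 and -47 from its second listed start. Windows of 250 bases before to 50 after the start were searched on both strands, and 3-unit matches also hold the 2-unit letters. Of all 35116 RefSeq promoters, 172 (0.49%) held the 3-unit letters and 4737 (13.5%) the 2-unit letters. In the 6 lists of cytosolic and mitochondrial chaperones used here, 95 of 112 tested genes had a promoter in the table. Among the 19 of these that were altered upward, 3 (15.8%) held 3 units and 12 (63.2%) held 2 units, against 5 (6.58%) and 15 (19.7%) of the other 76. The match of HSPA1L, at -161, is the same site as that of HSPA1A, read from the other strand, and HSPA1B holds a copy of it. These genes are thus not separate cases among the 12. All 8 genes of these lists with 3 units, HSPA6, HSPA8, DNAJA1, DNAJB6, CHORDC1, HSP90AA1, HSP90AB1 and HSPD1, rose past the adjusted p. The same count over all protein-coding genes altered upward or downward was void, because 75.2% and 74.4% of them had a promoter in the table, under the 80% needed. Of those found, 16.5% altered upward and 16.4% altered downward held 2 units, against 13.5% of all protein-coding genes tested. For 3 units these shares were 1.62% (6 genes), 1.64% (1 gene) and 0.438%. The contrast above thus covers the chaperone lists only and gives no difference between rising and falling genes in general. A match is a description of letters and not a measured binding site.

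HSPA6 (ENSG00000173110), the HSP70 that is made only under stress, stood at 0.795, 0.32 and 0.994 CPM in Control and at 1468, 1821 and 2246 CPM after heat. All 3 Control libraries were near silence and all 3 HT libraries held it at a high level, with no overlap. The mean was 0.703 ± 0.347 CPM in Control and 1845 ± 389.5 CPM after heat (SD, n = 3), which is 11.36 on the log2 scale (SE 0.24, edgeR adjusted p = 2.23e-11). HSPA7, annotated as a pseudogene next to HSPA6, followed it from 0.248, 0 and 0.11 CPM to 155, 162 and 164 CPM. HSPA6 and HSPA7 are near copies, and how reads that match both were assigned is not given. HSPA1A, a main inducible HSP70, was at 171, 157 and 142 CPM in Control and at 3371, 3663 and 4012 CPM after heat. HSPA1B, which encodes the same protein, was at 169.7, 135 and 147 CPM and at 3598, 3676 and 4223 CPM. Both copies already had a clear level at 37 °C and all heated libraries stood well above it, with log2 fold changes of 4.56 and 4.68 that share the same doubt about split reads. HSPA1L, the third gene of that cluster, went from 2.65 ± 0.399 to 39.2 ± 3.57 CPM.

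Of 13 tested HSP70 and HSP110 genes 10 rose and 1 fell at the adjusted p, against 12.2% and 11.4% of all genes, the shares to hold beside the counts of every list below, and 8 were altered upward. HSPA6 and HSPA7 were near silence in Control and came into the test by their heated libraries. In lists below so did BAMBI (BMP and ID), GADD45G (immediate early), DUSP8 (MAP kinase feedback), CDKN1C (cell cycle) and HIST2H2BF (histones), among others. The rising shares of all these lists are thus not comparable with that of all genes. For the HSP70 and HSP110 list the median log2 fold change was 2.19 against 0 over all genes tested, and it stayed above 2 with every scaling. The constitutive HSPA8, the workhorse of unstressed cells, had 2148, 2039.8 and 1876 CPM in Control and 3536, 3589.5 and 3649.9 CPM after heat, a smaller ratio on a high level (log2 fold change 0.84, SE 0.06, edgeR adjusted p = 8.39e-07). HSPH1, the HSP110 that exchanges nucleotide on HSP70, was at 485, 514 and 399.6 CPM and then at 3261, 3125 and 3601 CPM. Its 3 heated libraries kept close together and well clear of Control (2.85). HSPA13, an HSP70 of the microsomes, fell from 39 ± 0.312 to 28.1 ± 2.44 CPM (-0.46, edgeR adjusted p = 0.00178). For HSPA2 the values were 3.84 ± 0.628 and 5.19 ± 0.316 CPM (edgeR adjusted p = 0.0931).

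J-domain proteins moved in part. Of 39 tested, 9 rose (23.1%) and 2 fell (5.13%, under the 11.4% of all genes), 5 were altered upward and 28 did not pass, and the median was -0.06 (between -0.14 and -0.03 with other scalings, where library size only makes 9 of them fall). DNAJB1, the main partner of HSP70 in refolding, stood at 209.8, 176 and 203 CPM in Control and at 3451, 3578 and 3933 CPM after heat. DNAJA4 went from 22.7, 27 and 17.7 to 497, 438 and 561 CPM, and DNAJB4 from 13.2, 10.9 and 11.9 to 252, 254 and 319 CPM. In all 3 genes the heated libraries lay far above Control, with log2 fold changes of 4.23, 4.48 and 4.53. DNAJA1 (1.87) and DNAJB2 (1.25) were the other 2 altered upward. At the low end DNAJC28 was at 0.67 ± 0.137 and 0.254 ± 0.0402 CPM (-1.36, edgeR adjusted p = 0.0382), and this call was lost whichever of the 6 libraries was left out, at an adjusted p of 0.0666 to 0.134, with a replicate block (0.0564) and with DESeq2 (0.157). DNAJC14, the other gene that fell (-0.26), lost its call with DESeq2 (0.0712), with upper quartile factors (0.0675) and when any of the 6 libraries except Control replicate 3 was left out.

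Small heat shock proteins, which hold unfolding proteins soluble without ATP, had 4 of 5 tested genes altered upward and none lower. The other 6 genes of the list had too few counts to be tested, and CRYAB, HSPB8 and HSPB9 were near silence in Control and came into the test by their heated libraries, so the share of this list that rose is not comparable with that of all genes. CRYAB, the alphaB-crystallin of muscle and lens, had no count in any Control library and 3.96, 5.59 and 5.29 CPM after heat, at least 94.4-fold higher against a floor of 3 counts over the group. HSPB8, which works with BAG3, went from 0.298, 0.32 and 0.552 to 24.3, 24.1 and 29.9 CPM. HSPB1 (HSP27) was high from the start, at 360.1, 366 and 391 CPM, and reached 1864, 2019 and 2304 CPM. These 3 genes thus started from nothing, from a trace and from a high level, and each had its lowest heated library above its highest Control library. The median of the list was 3.87, and also 3.87 with CRYAB at its bound.

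**Figure D2:**
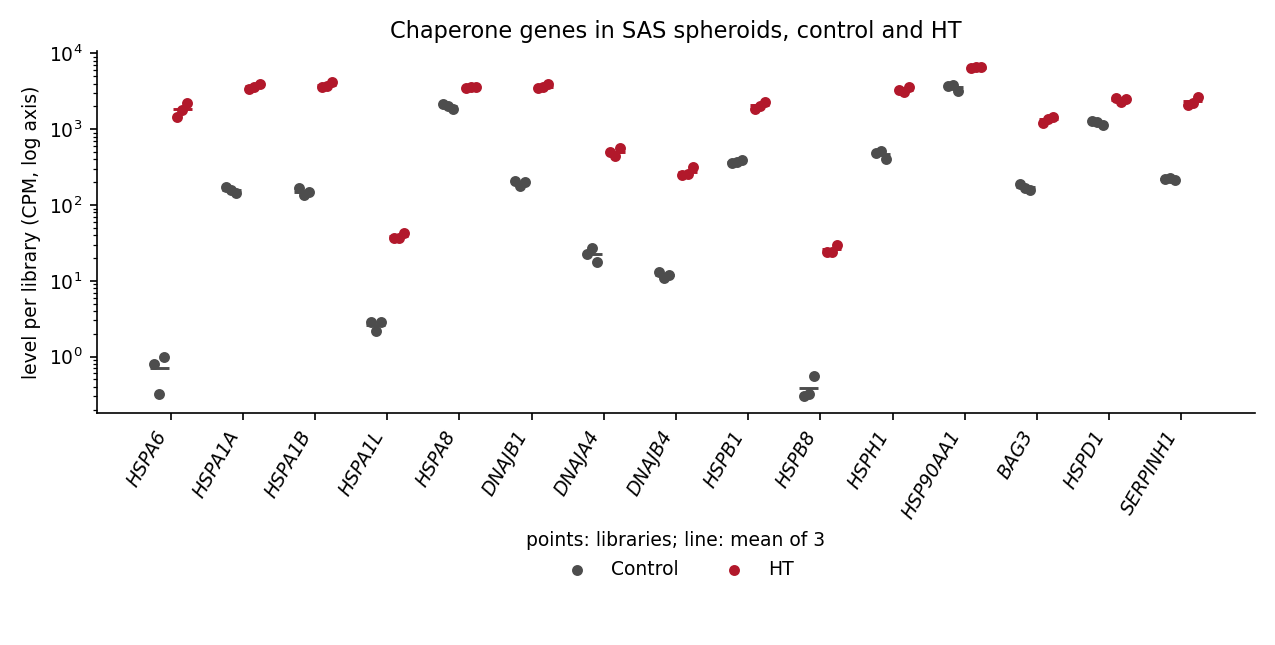
Level in each library (y axis, CPM on a log scale) of 15 chaperone genes in 3 Control and 3 HT libraries. In all 15 genes the HT points lie above the Control points, from HSPA6, with means of 0.703 and 1845 CPM, to HSPA8, with means of 2021 and 3592 CPM.

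HSP90 and its partners rose by smaller factors for the most part. Of 26 tested genes 13 rose and none fell, with a median of 0.19 (0.11 with library size only, where 1 fell). BAG3, an exchange factor for HSP70 that also steers clients to autophagy, was at 187, 170.3 and 156 CPM in Control and at 1226, 1368 and 1468 CPM after heat. FKBP4, an immunophilin of HSP90, went from 188, 174 and 152 to 760.1, 647 and 764 CPM, and CACYBP, a scaffold for ubiquitin ligases, from 179.8, 179 and 147 to 462, 487 and 523 CPM. All 3 had narrow groups with a wide gap between them (2.99, 2.09 and 1.55). HSP90AA1, the inducible HSP90, had 3668, 3842 and 3184 CPM in Control and 6374, 6540.0 and 6582 CPM after heat. With a log2 fold change of 0.88 it was not counted as altered, yet its gain of 2930 CPM was the fourth largest of all genes.

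Other classes of chaperone moved less. In mitochondria HSPD1 (HSP60) rose from 1222 ± 85.5 to 2462 ± 151 CPM (1.02) and its partner HSPE1 (HSP10) from 203 ± 19 to 341 ± 15.8 CPM (0.76), while the protease subunit CLPX fell from 59.8 ± 3.01 to 44.9 ± 2.6 CPM. The other 12 of 15 genes of that list did not pass, so that its shares (13.3% up and 6.67% down) were not far from those of all genes, and its median of 0.02 turned to -0.06 with library size only. The TRiC chaperonin, which folds actin and tubulin, and prefoldin had 7 of 14 genes higher and none lower (4 higher and 1 lower with library size only), with TCP1 at 654, 684 and 609 CPM in Control and 994, 1028 and 1014 CPM after heat. CCT4 (0.48) and CCT6A (0.39) were smaller rises, and CCT5, with the most counts, was at 791 ± 51.4 and 877 ± 10.7 CPM (edgeR adjusted p = 0.0679, 0.0417 without Control replicate 1, 0.0395 with a replicate block and 0.0364 with upper quartile factors). SERPINH1 (HSP47), the collagen chaperone of the ER, stood far from the other ER genes: 222, 227 and 213 CPM in Control against 2116, 2196 and 2682 CPM after heat (3.41). Its 3 Control values almost coincided and its 3 heated values all lay far above them, for a fold change of 10.6.

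The transcripts of the factors themselves moved little. HSF1 was at 173, 166 and 177 CPM in Control and at 184, 188 and 185 CPM after heat, with every heated library higher but the test not passed (0.12, edgeR adjusted p = 0.134). HSBP1L1, a gene like that of the HSF1-binding protein HSBP1, rose from 22.8 ± 1.59 to 51.6 ± 6.73 CPM, and HSBP1 from 84.5 ± 3.24 to 107 ± 7.21 CPM. These were the 2 of 5 tested genes of the list that passed. In the ubiquitin list UBB, which encodes a chain of ubiquitin repeats, rose from 532, 458 and 442 to 1229.9, 1232 and 1426 CPM, with separate groups. ZFAND2A, a zinc finger protein of the proteasome under arsenite and heat, went from 17.4, 13.2 and 14.4 to 126, 168 and 177 CPM. In that list 7 of 15 rose and none fell (4 and 1 with library size only). Of 32 proteasome subunits 3 passed upward (9.38%, under the 12.2% of all genes), ADRM1 (0.23), PSMD14 (0.2) and PSMB1 (0.16), and all 3 calls were lost with library size only and without Control replicate 2, Control replicate 3 or HT replicate 2. With library size only none rose and 1 fell, and without Control replicate 2 the edgeR adjusted p of the 3 was 0.0534, 0.0778 and 0.113.

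Stress pathways next to the heat shock response were touched in part. In the integrated stress response ATF3, a repressor induced by many stresses, rose from 5.61, 6.77 and 8.51 to 34.8, 31.7 and 29.6 CPM, and PPP1R15A (GADD34), which brings the phosphatase to eIF2alpha, from 87.8, 112 and 107 to 430.4, 417 and 345 CPM. DDIT3 (CHOP) was at 21.5 ± 2.18 and 24.9 ± 2.9 CPM (edgeR adjusted p = 0.176). Amino acid transporters of the same list went down, SLC7A11 from 41.8 ± 3.12 to 23.5 ± 4.62 CPM (-0.82) and SLC7A5 from 2809, 2696 and 3158 to 1908, 2147 and 2306 CPM (-0.44). The list thus held 6 genes that rose and 4 that fell of 23, with a median of 0.01 that turned to -0.06 with library size only, where 5 rose and 9 fell. In the ER list 3 of 27 rose and 7 fell (11 with library size only), with a median of -0.07. Among those that fell, the ER chaperone HSPA5 (BiP) went from a mean of 848.6 to 656 CPM (-0.36), HERPUD1 from 39.4 ± 1.75 to 25.9 ± 4.81 CPM (-0.59), the transcription factor XBP1 from 54.8 ± 6.47 to 36.2 ± 5.43 CPM (-0.59) and SEL1L, a subunit of ER-associated degradation, from 87.8 ± 4.14 to 59.5 ± 2.4 CPM (-0.55). The stress sensor ERN1 (IRE1) rose from 16.5 ± 2 to 24.8 ± 1.61 CPM (0.6).

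Genes of the metal and oxidative stress list were 7 higher and 4 lower of 19. SLC30A1, which exports zinc, rose from 12.6, 15.2 and 16.5 to 67.3, 84 and 105 CPM. HMOX1, which breaks down heme, rose from 0.944, 0.906 and 0.773 to 4.01, 4.17 and 4.32 CPM, and TXNIP, which binds thioredoxin, from 16.3 ± 2.14 to 52.9 ± 11.8 CPM. All 3 had separate groups, with HMOX1 the tightest of them at a low level. GCLC and GCLM, the subunits of the enzyme that starts glutathione synthesis, fell by 0.48 and 0.31 on the log2 scale, and KEAP1, the inhibitor of NRF2, fell by 0.31. MT2A, a metallothionein and the gene of the list with the most counts, was at 1621 ± 219 and 1818 ± 94.5 CPM (edgeR adjusted p = 0.161, 0.0129 without Control replicate 1 and 0.0289 with a replicate block).

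Immediate early genes, transcribed within minutes of many signals, mostly rose: 27 of 45 were higher and 5 lower (23 and 8 with library size only), 19 were altered upward and the median was 0.51. FOS had 10.4, 11.1 and 26.1 CPM in Control and 200.4, 213 and 174 CPM after heat. IER5, a nuclear protein that acts on HSF1, went from 192, 190.1 and 156 to 1753, 1603 and 1633 CPM. Both had every heated library above every Control library, FOS with a Control replicate 3 above the other 2. GADD45G (3.91) and the nuclear receptor NR4A3 (3.68) rose from a trace. Against this trend IER3, an early gene that protects cells from death, fell from 123, 147 and 125 to 46.3, 47 and 37.8 CPM (-1.59, edgeR adjusted p = 3.01e-07), PLK2 by 0.66 on the log2 scale and the transcription factor EGR3 from 73.9 ± 11.8 to 51 ± 9.09 CPM (-0.52).

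Feedback inhibitors of MAP kinases went both ways, 8 up and 4 down of 23 (6 and 6 with library size only). RGS2, which ends signals of Gq proteins, rose from 2.43, 1.92 and 2.98 to 59.7, 55.7 and 62.4 CPM, and SPRED3 from 1.94 ± 0.775 to 13.4 ± 2.17 CPM. DUSP8, a phosphatase of JNK and p38, had 3 counts over the Control libraries and a count ratio of 29.4 (95% interval 9.76 to 145, for counting error only). DUSP6, the phosphatase of ERK in the cytoplasm, fell from 155, 173 and 143 to 60.7, 56.6 and 44.7 CPM (-1.53), and DUSP7, close to it, from 102, 107 and 99.7 to 67.3, 61 and 66 CPM (-0.66). The groups of both were apart, so within the phosphatase family genes rose and fell side by side.

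Inflammatory genes went both ways, and their shares were not tested against those of all genes. Among NF-kappaB genes 5 of 18 rose (27.8%) and 2 fell (11.1%): NFKBIZ, a nuclear cofactor, went from 3.87, 5.38 and 5.91 to 57.4, 38.5 and 32.5 CPM and TNFAIP3 (A20) from 18.5, 21.7 and 21.8 to 48.6, 52 and 43.7 CPM, while the inhibitor NFKBIA fell from 58.5, 50.4 and 50.3 to 40.4, 42.4 and 33 CPM (-0.45). REL, the other NF-kappaB gene that fell (-0.62), lost its call without Control replicate 3 (edgeR adjusted p = 0.123) or any 1 HT library (0.0538 to 0.111). Cytokine genes had 10 of 20 higher (50%) and 2 lower (10%), with a median of 0.64. CCL26, a chemokine for eosinophils, rose from 0.142 ± 0.0682 to 4.32 ± 1.19 CPM, the suppressor SOCS1 from 0.484 ± 0.21 to 3.91 ± 0.623 CPM and CCL2 from 0.418 ± 0.123 to 2.36 ± 0.675 CPM. CCL26, SOCS1 and CCL2 had few counts in Control and came into the test by their heated libraries. The share of cytokines that rose is thus not comparable with that of all genes. The 2 cytokines that fell had many more counts. IL1A had 72.3, 88.6 and 69.2 CPM in Control and 33.9, 30.6 and 20.9 CPM after heat (-1.42), and IL1B had 112, 124 and 103 CPM and then 50.8, 54.6 and 53.3 CPM (-1.09). Both fell in every heated library.

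Interferon-stimulated genes were mostly lower where they passed, with 7 of 31 down (22.6%, against 11.4% of all genes, and 9 with library size only), 2 up (6.45%, against 12.2%) and a median of -0.08. IFIT2, an antiviral protein that binds RNA, fell from 47.7, 35.8 and 30.7 to 15, 11.3 and 10.1 CPM (-1.65, edgeR adjusted p = 3.41e-05). IFIT3 went from 38.4 ± 8.86 to 15.6 ± 3.31 CPM (-1.3) and IFIT5 from 29 ± 2.13 to 13.7 ± 1.36 CPM (-1.07). All 3 IFIT genes had separate groups. STAT2, a factor that drives this gene class, went the other way, from 27.8, 30.8 and 32.3 to 122, 77.9 and 97.8 CPM (1.72).

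**Figure D3:**
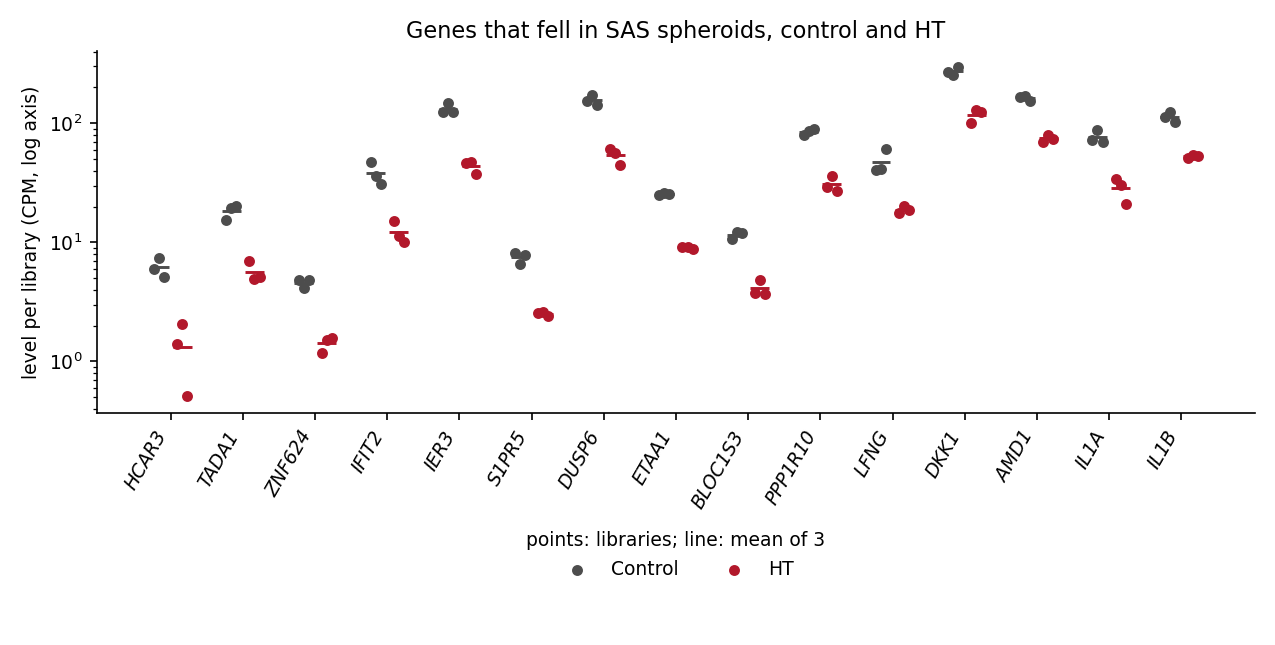
Level in each library (y axis, CPM on a log scale) of 15 genes that were lower after heat, in 3 Control and 3 HT libraries. The groups do not overlap in any of them, which was a condition of choice for many and held for 106 of all 107 genes altered downward. The levels in Control run from a mean of 4.59 CPM (ZNF624) to one of 274 CPM (DKK1).

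Among genes with a mean log2 CPM of at least 1 and separate groups, those that fell furthest came from varied functions. HCAR3, a receptor for hydroxylated fatty acids, had 6.01, 7.46 and 5.14 CPM in Control and 1.39, 2.06 and 0.508 CPM after heat, a log2 fold change of -2.21 (SE 0.34, edgeR adjusted p = 5.89e-04). TADA1, a subunit of the SAGA coactivator, went from 15.3, 19.5 and 20.2 to 6.95, 4.9 and 5.13 CPM (-1.69). S1PR5, a receptor for sphingosine 1-phosphate, went from 8.15, 6.56 and 7.9 to 2.57, 2.6 and 2.39 CPM (-1.57). ETAA1, an activator of the ATR checkpoint kinase, dropped from 24.8, 26.1 and 25.6 to 9.09, 9.17 and 8.79 CPM (-1.49), with replicates that almost coincided. BLOC1S3, a subunit of a complex that forms lysosome-related organelles, fell by 1.48 on the log2 scale, PPP1R10, a nuclear partner of protein phosphatase 1, from 79.4, 85.5 and 89.5 to 29.3, 35.9 and 27.2 CPM (-1.45), and MAGEE1 by 1.43.

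Few genes altered downward had a high count in Control. DKK1, a secreted inhibitor of Wnt signals, had 272, 254 and 296 CPM in Control and 100.5, 130.2 and 124 CPM after heat (-1.2). AMD1, an enzyme of polyamine synthesis, went from 166, 169 and 155 to 70.1, 79.6 and 74.3 CPM (-1.12). With IER3, DUSP6 and IL1B these were the 5 genes at 100 CPM or more in Control that were altered downward. Each had separate groups, as did 106 of all 107 genes altered downward. Less of an RNA per cell and fewer cells that make it cannot be told apart in bulk RNA.

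Regulators of proliferation were more often lower than higher. In the cell cycle list 9 of 32 fell (28.1%, against 11.4% of all genes) and 2 rose (6.25%, against 12.2%), with a median of -0.12 (-0.2 with library size only, where 16 fell, and -0.09 with upper quartile factors, where 8 did). CDC25A, the phosphatase that frees CDK2 at the start of S phase, went from 91, 98.8 and 99.8 to 49.9, 55.1 and 46.1 CPM (-0.93), CCNE2, a cyclin of that step, from 19.3, 24.4 and 22 to 12.4, 14.6 and 15 CPM (-0.63), and the inhibitor CDKN1B (p27) from 22.9, 17.4 and 27.4 to 13.9, 12.2 and 13.2 CPM (-0.77). Drivers and a brake of the cycle thus fell with HT alone. In irradiated spheroids CDC25A (-0.85) and CCNE2 (-0.63) fell again, while CDKN1B had -0.2 (edgeR adjusted p = 0.287). The difference for CDKN1B (0.57, SE 0.21) did not pass. The inhibitors CDKN1C (p57) and CDKN2C (p18) rose from 0.193 ± 0.121 to 1.35 ± 0.453 CPM and from 4.22 ± 1.21 to 12.1 ± 3.75 CPM. Targets of p53 had 4 up and 4 down of 25 (16% each way, near the shares of all genes, and 3 and 7 with library size only). PMAIP1 (NOXA), a killer protein of the BCL2 family, rose from 24.1 ± 5.15 to 63.1 ± 3.52 CPM and CDKN1A (p21) from 98.3 ± 5.91 to 169 ± 8.3 CPM. SESN1 (-0.76), PHLDA3 (-0.43) and MDM2 (-0.36) fell. BTG2, another that rose (0.52), lost its call with library size only (edgeR adjusted p = 0.0709). It also lost it when any library except Control replicate 3 was left out (0.0537 to 0.145).

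Developmental signals showed large rises from low levels. In the BMP and ID list 8 of 13 genes rose and none fell, with a median of 0.68 (library size only made 1 fall). BMP4, a secreted morphogen, went from 0.944, 1.97 and 1.77 to 33.5, 31.4 and 36.5 CPM, and ID2, an inhibitor of bHLH factors, from 1.24, 0.64 and 1.66 to 13.2, 13.7 and 20.2 CPM. BAMBI, a decoy receptor, had 1 count over the Control libraries and a count ratio of 53.4 (95% interval 9.18 to 2145, for counting error only). BAMBI came into the test by its heated libraries, so the rising share of this list is not comparable with that of all genes. BMP4 and ID2 were clearly present in all heated libraries, whereas ID1, with the most counts, was at 85.9 ± 6.62 and 87.8 ± 3 CPM (edgeR adjusted p = 0.71). Notch genes went both ways, 6 up (35.3%) and 4 down (23.5%) of 17, where 1 of the falls, JAG2, lost its call with upper quartile factors (edgeR adjusted p = 0.0761), with at least 10 counts in every library (0.0662), and without Control replicate 3 (0.13), HT replicate 1 (0.11) or HT replicate 2 (0.156): the target HES1 rose from 48.1, 48.8 and 59.9 to 118, 101 and 90.8 CPM (0.99), and LFNG, the sugar transferase that tunes Notch receptors, fell from 40.6, 41 and 60.4 to 17.8, 20.2 and 18.6 CPM (-1.31). HES2 (-0.82) and NOTCH3 (-0.52) fell too.

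Metabolic lists held few large changes. Of 23 genes of hypoxia and glycolysis 6 fell and 2 rose (9 and 1 with library size only), with a median of -0.13: HILPDA, a brake on fat breakdown in droplets, fell from 13.7, 16.5 and 12.9 to 5.67, 5.93 and 7.42 CPM (-1.16) and the glucose carrier SLC2A1 from 356, 366 and 327 to 266, 262 and 228 CPM (-0.46), while PFKFB4 rose by a log2 fold change of 0.68. P4HA1, the other gene that rose (0.2), lost its call with DESeq2 (adjusted p = 0.066). It also lost it when any library except HT replicate 1 was left out (edgeR adjusted p = 0.0745 to 0.141). ENO1, with the most counts, was at 1912 ± 71.7 and 1969.9 ± 46.3 CPM (0.05, edgeR adjusted p = 0.509, and -0.03 with library size only). In the sterol list, 2 up and 2 down of 17 (11.8% each way, near the shares of all genes) with a median of 0.07 (-0.01 with library size only), INSIG1, which holds back sterol synthesis, rose from 163, 142 and 168 to 322, 292 and 297 CPM (0.96). Its heated libraries were all higher than any in Control. SQLE, 1 of the 2 sterol genes that fell (-0.17), lost its call with upper quartile factors (edgeR adjusted p = 0.0613). It also lost it when any library except Control replicate 2 was left out (0.0503 to 0.118).

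Some genes that handle RNA changed too. In the splicing list 8 of 23 rose (34.8%) and 2 fell (8.7%, under the 11.4% of all genes), or 6 and 3 with library size only, and SRSF1, 1 of the 2, lost its call with upper quartile factors (edgeR adjusted p = 0.0759) and when any of the 6 libraries except Control replicate 3 was left out. CLK1, a kinase of SR proteins, went from 33.3, 39.3 and 40.9 to 249, 280.3 and 292 CPM (2.87) and CLK4 from 15.8, 20.9 and 17.2 to 50.1, 61.1 and 56.4 CPM (1.65). TRA2A, an SR-like protein, rose by 1.05 on the log2 scale, and SRSF2, an SR protein, fell from 199.7, 201 and 204 to 158, 144 and 134 CPM (-0.46). Kinases of SR proteins thus rose while an SR protein fell, each with separate groups. Among subunits of the transcription machinery 7 of 28 fell and 4 rose, and the median of -0.01 turned to 0.02 with upper quartile factors and to -0.08 with library size only, where 8 fell and 1 rose. Beside TADA1, the Mediator subunit MED7 fell from 9.98, 9.11 and 9.23 to 4.33, 5.54 and 5.54 CPM (-0.87) and CDK9, the kinase that releases paused polymerase, from 59.6, 63.3 and 64.2 to 42.1, 38.4 and 38.6 CPM (-0.64), whereas its cyclin CCNT2 rose by 0.48 on the log2 scale. BRD2, with the most counts, was at 282 ± 31.4 and 259 ± 12.4 CPM (edgeR adjusted p = 0.348).

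Gene families with many members were looked at as well. Of 384 tested ZNF zinc finger genes 59 rose (15.4%) and 41 fell (10.7%), near the 12.2% and 11.4% of all genes, and 14 were altered upward (3.65%, against 5.31% of all genes) and 12 downward (3.12%, against 0.713%), so that 12 of all 107 genes altered downward were of this family. ZNF624 fell from 4.87, 4.1 and 4.81 to 1.18, 1.52 and 1.58 CPM (-1.67), ZNF792 (-1.84) and ZNF500 (-1.43) fell beside it, and ZNF799 (2.02) and ZNF761 (1.88) rose. The family's median of 0.01 turned to -0.07 with library size only, and 64 members were then lower. Ribosomal protein genes had 46 of 82 higher, 2 lower and none altered. Their median was 0.18 (0.1 with library size only, where 13 passed upward, and 0.21 with upper quartile factors, where 67 did), for example RPL37 from 1419.5, 1452 and 1442 to 1631, 1727 and 1863 CPM. The 2 that fell, RPL7L1 from 254, 261 and 240.1 to 167, 165 and 165 CPM (-0.59) and RPL22L1 (-0.45), are paralogs of the ribosomal protein genes RPL7 and RPL22. Of 25 tested histone genes 4 rose (16%, against 12.2% of all genes), led by HIST2H2BF (1.9) and HIST2H2BE (1.41), and the linker histone genes H1F0 (-0.41) and H1FX (-0.38) fell, with a median of 0.07 that turned to -0.01 with library size only, where 5 fell. Of 13 small nucleolar RNA genes 3 rose and 2 fell at low levels, with a median of -0.25, from SNORA20 (3.67) to SNORD83A (-2.4). SNORD104, the other that fell (-0.74), lost its call without Control replicate 3 (edgeR adjusted p = 0.0532), HT replicate 1 (0.0567) or HT replicate 2 (0.0683).

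**Figure D4:**
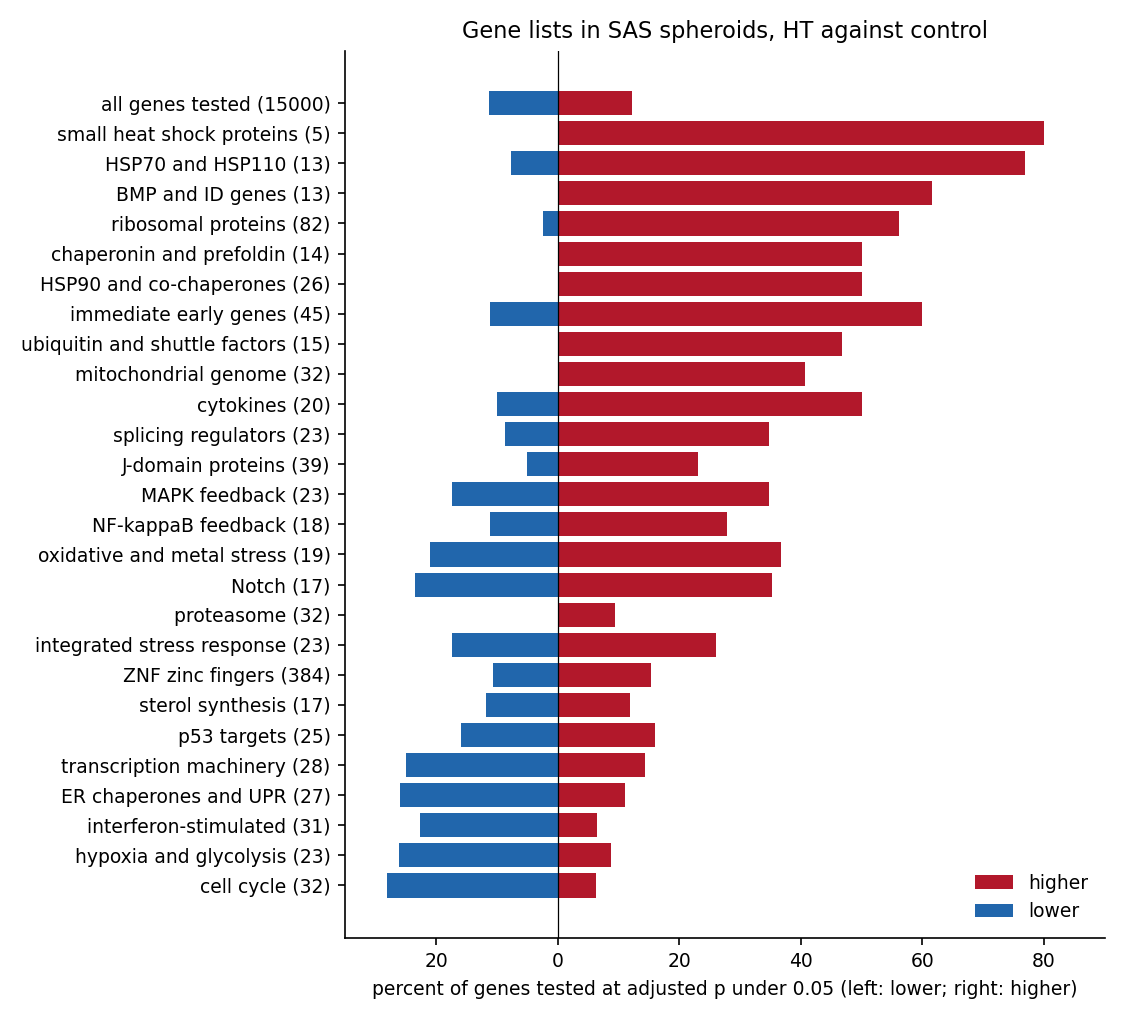
Percent of tested genes past an adjusted p of 0.05, to the right where higher and to the left where lower after heat, for all genes and for 26 gene lists with the number tested in brackets. Small heat shock proteins (80% higher, of 5 genes tested) and HSP70 and HSP110 (76.9% higher) stand first. Cell cycle genes (28.1% lower) and hypoxia and glycolysis genes (26.1% lower) close the order. Some small heat shock proteins and cytokines came into the test by their heated libraries, so the rising shares of these lists are not comparable with that of all genes. HSPA6 and HSPA7 in the HSP70 list came in this way too. So did BAMBI (BMP and ID), GADD45G (immediate early), DUSP8 (MAPK feedback) and CDKN1C (cell cycle), and the same limit holds for their lists.

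Many of the largest ratios belonged to genes that were silent or nearly so at 37 °C. Of the 797 genes altered upward 432 (54.2%) had a Control mean under 1 CPM, 19 had no count in any Control library and 30 had 1 to 3 counts, whereas 13 of the 107 altered downward began under 1 CPM. PNLDC1, an exonuclease that trims small RNAs of the germ line, had no Control count and 13.2, 9.12 and 13.8 CPM after heat, at least 228-fold higher. RFPL2 had no Control count and 6.1, 5.49 and 6.46 CPM, at least 114-fold higher. Both were present in all 3 heated libraries. COL2A1, the collagen of cartilage, went from 0, 0.213 and 0.221 to 14.4, 16.6 and 22.5 CPM, and RFTN2 from 0.0497, 0.0533 and 0.221 to 15.7, 11.2 and 15 CPM. NHLH1, a bHLH factor of neurons, reached 10.1, 4.07 and 7.98 CPM and PPP1R3C, which brings a phosphatase to glycogen, 6.79, 5.98 and 5.59 CPM, from Control means of 0.0876 ± 0.112 and 0.0705 ± 0.0314 CPM. Every heated library of these genes lay above every Control library, which was also so for 792 of the 797 genes altered upward.

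The class, level and structure of the altered genes are set out next. Of 12601 protein-coding genes tested 3.9% were altered upward, against 11.9% of 742 antisense RNA genes, 10.9% of 540 lincRNA genes and 11.6% of 639 pseudogenes. Protein-coding genes made 84% of the genes tested, 61.7% of those altered upward, 76.6% of those altered downward and 95.6% of the 1717 lower at the adjusted p alone. By level, 14.2% of the fifth of genes with the fewest counts were altered upward and 1.93% of the fifth with the most, so a part of level in the shares by class is possible and was not tested. The filter lets in genes that have counts only after heat, which favours rises at low level, and with at least 10 counts in every library 432 genes were altered upward in place of 797. At the adjusted p, 15.1% of the 3000 least expressed genes rose and 1.63% fell, and of the 3000 most expressed 13.2% rose and 16.8% fell. A fall is harder to detect at low counts, so these shares of falling genes do not compare like with like. Protein-coding genes altered upward had a median of 5 exons and a span of 13871.5 bases, those altered downward 3 exons and 7170.5 bases, and all those tested 8 exons and 32238 bases. Single-exon genes were 10.6% of those altered upward and 24.4% of those altered downward, against 3.56% of all. The 1642 protein-coding genes lower at the adjusted p alone had 8 exons and 33618.5 bases, and 5.79% of them had a single exon. Altered genes were thus shorter with fewer exons, and the wider set that fell differed less from all those tested. Genes altered upward also had a lower level, with a median of 1.31 CPM in Control against 28.4 CPM for all.

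Altered genes lay next to others altered in the same direction more often than all genes did. The next tested gene upstream on the same strand was altered upward for 94 of 786 genes altered upward (12%), against 787 of 14903 genes in all (5.28%) and 3 of 106 genes altered downward (2.83%). It was altered downward for 4 of the 106 (3.77%), against 0.718% of all. In 80 of the 94 pairs the annotated spans do not overlap. PNLDC1 follows MRPL18 (1.92), a mitochondrial ribosome gene, MFAP1P1 (7.52) follows HSPH1, HSPA1B follows HSPA1A, HSPA7 follows HSPA6, and HSPD1 follows RFTN2. The pseudogene AC093591.3, which overlaps HSPA4L (2.19), had 3 Control counts and a count ratio of 154 (95% interval 52.2 to 747, for counting error only). MFAP1P1, HSPA7 and AC093591.3 thus follow or overlap a chaperone gene that rose with them. Of 72 antisense genes altered upward with a tested protein-coding partner, 17 (23.6%) had a partner altered upward, against 28 of 566 (4.95%) of all antisense genes. AP4B1-AS1 went from 0.0497, 0.0533 and 0.11 to 8.99, 4.46 and 4.27 CPM, and the gene after it, DCLRE1B, rose too (3.06). The strand setting of the counting is not given, so reads of overlapping genes cannot be told apart, and whether transcripts ran on past gene ends was not tested.

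Markers of squamous epithelium were present at unequal levels. KRT5 had means of 1130 and 1210 CPM and TP63 of 185 and 152 CPM, while KRT13 had 17 and 20 counts and KRT6B 59 and 89 counts. All 22 epithelial markers of the list had counts, 21 passed the filter, and their sum was 13900, 13900 and 13600 CPM in Control and 15200, 15600 and 15000 CPM after heat, led by KRT8 and KRT18, which are keratins of simple epithelium, so the sum does not measure squamous character. Among them KRT6A, a keratin of stressed epithelium, rose from 34.2 ± 1.79 to 61.1 ± 6.92 CPM and SFN (14-3-3 sigma) fell from 494 ± 14.8 to 371 ± 27.4 CPM (6 up and 2 down of 21, 3 and 4 with library size only, median -0.03). In the keratin family 11 of 29 listed genes rose (7 with library size only), with a median of 0.35. Of these KRT3 (1.27) lost its call with DESeq2 (adjusted p = 0.151) and with a replicate block (edgeR adjusted p = 0.0599). KRT3 also lost it whichever of the 6 libraries was left out (0.053 to 0.145). KRT16, KRT79 and KRT8 lost theirs without some of the libraries. The 1 member that fell, KRT7-AS (-0.62), is an antisense RNA gene and not a keratin gene. It lost its call without Control replicate 3 (edgeR adjusted p = 0.0577), HT replicate 2 (0.0798) or HT replicate 3 (0.0643). The sum of 10 fibroblast markers was 16.5, 20 and 17.5 CPM in Control and 47, 35 and 43.4 CPM after heat, with FAP the highest in Control, COL1A1 the highest after heat and THY1 at 0 in all 6 libraries. COL1A1 by itself went from 1.09, 0.906 and 1.71 to 29, 15.4 and 22.5 CPM (4.18), while the defining markers COL3A1 with 1 count in either group and DCN with 1 and 0 counts stayed near 0, and PDGFRA with 6 and 32 counts and COL1A2 with 4 and 13 counts were higher after heat at trace levels. The sum of 7 endothelial markers was 16.2, 19.3 and 10.3 CPM against 16.6, 21.1 and 9.15 CPM, nearly all of it CDH5, with KDR and EMCN at 0. The sum of 11 immune markers was 10.7, 9.11 and 10.8 CPM against 8.61, 7.26 and 7.32 CPM, mostly CD14, with PTPRC, CD3D, MS4A1 and NKG7 at 0. The 3, 2 and 3 tested genes of these 3 lists held 1 call, COL1A1, and their medians were 0.3, -0.32 and -0.15. CD14 (-0.47, edgeR adjusted p = 0.0738) passed as lower with a replicate block (0.0294) and with library size only (0.0364). It also passed without Control replicate 2 (0.0408) or HT replicate 1 (0.0482).

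Library HT replicate 1 stood apart in genes followed as signs of RNA handling. Summed over the mitochondrial genome the level was 12230, 14050 and 16860 CPM in Control and 23950, 13850 and 15590 CPM after heat, so that only HT replicate 1 left the range of Control. The sum of the 3 tested genes in the list of RNA handling signs was 457.9, 606.1 and 716.9 CPM against 1338, 634.6 and 818.6 CPM. It was again highest in that library. The mitochondrial rRNA genes of the list were not tested and are not in the sum. Most of it was NEAT1, at 334, 473 and 580.2 CPM against 1121, 488 and 625 CPM. Its edgeR adjusted p was 0.069, 0.0188 without HT replicate 2, and 0.0307 both without Control replicate 3 and with a replicate block. Of 3 tested genes there MALAT1 alone passed, from 99 ± 16.5 to 163 ± 39.4 CPM (0.73, and 0.56 without HT replicate 1), and the median was 0.7. Mitochondrial genes had 13 of 32 higher, all of them tRNA genes, none lower and a median of 0.52. MT-TI went from 1.24, 1.17 and 0.829 to 15.3, 7.21 and 8.85 CPM (3.27), with the other 2 heated libraries also clear of Control, and without HT replicate 1 it remained at 2.89, MT-TM at 2.22 and MT-TQ at 1.83. MT-CO1, with the most counts, was at 2834 ± 399 and 3615 ± 1124 CPM (edgeR adjusted p = 0.144). Without HT replicate 1 the altered genes numbered 715 upward and 100 downward. In the irradiated libraries, none of which is HT replicate 1, NEAT1 was higher with HT too (0.68, edgeR adjusted p = 0.0029), and so was MALAT1 (0.91, edgeR adjusted p = 2.96e-04). The part of RNA handling in the gene changes was not tested.

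The heat effect was measured again in libraries that share no sample with it, SAS spheroids with HT and RT together against RT alone. There 999 of 15125 genes (6.6%) were altered. Of the genes altered by HT alone 670 were altered in the same direction, 74.1% of that list and 67.1% of the other, 610 upward and 60 downward. Of the 105 genes altered downward and tested in both, 104 were lower again, and of the 1715 lower at the adjusted p alone 1700 were lower again and 1373 passed. Most of the shallow falls thus came back under irradiation, but not all of them passed there. HERPUD1 had -0.59 without RT and 0.03 with it, although the difference of 0.62 (SE 0.18) did not pass. Across the 14740 genes tested in both, which are not independent replicates, Pearson's r of the log2 fold changes was 0.9. HSPA6 had 10.76 there and 11.36 without RT, HSPA1A 4.83 and 4.56, IER3 -1.83 and -1.59, DUSP6 -1.71 and -1.53, and TADA1 -1.33 and -1.69.

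**Figure D5:**
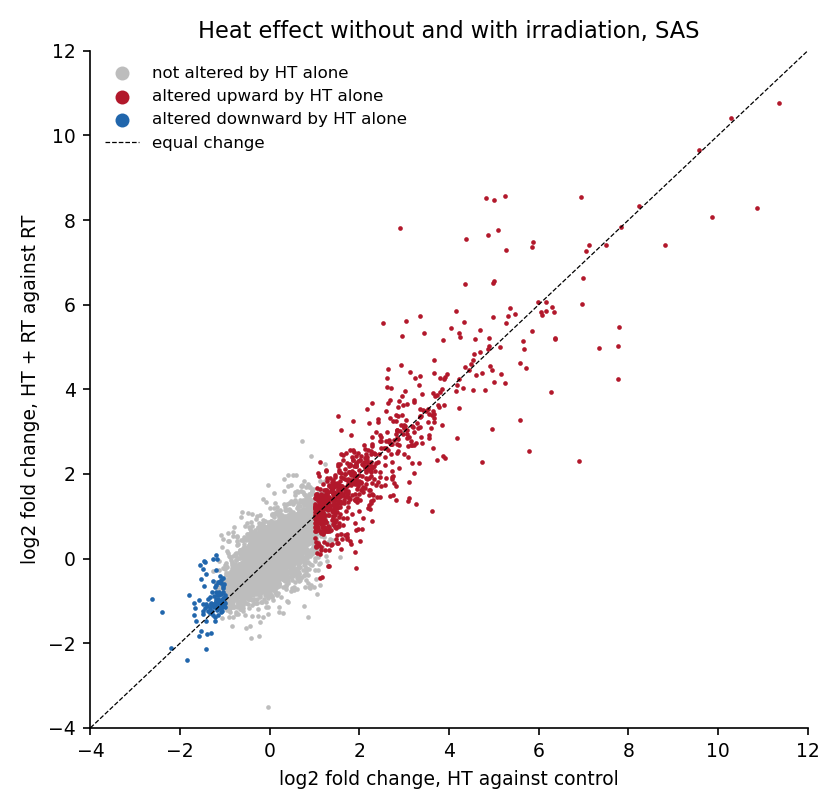
Log2 fold change of HT against Control (x axis) and of HT with RT against RT (y axis) for the 14740 genes tested in both, from separate libraries. Points follow the diagonal on both sides of 0, with 610 genes altered upward in both and 60 altered downward in both.

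A test of the difference itself, heat by irradiation, passed for 1 of 15833 genes (0.00632%), with 629 genes at an unadjusted p under 0.05 and 3 by DESeq2. That gene, DUSP2, a nuclear phosphatase of MAP kinases, was picked out after its values were seen. It had 23.1, 30.2 and 34.5 CPM in Control and 196, 216 and 172 CPM after heat, and 65.4, 67.3 and 64.05 CPM with RT and 181, 198 and 172 CPM with both. The level with RT alone was higher and the heated levels alike, so its heat effect was 2.75 without RT and 1.5 with it (difference -1.25, SE 0.15, edgeR adjusted p = 0.00998). The number of genes that passed was 0 without RT replicate 2, 2 without Control replicate 3 and 2 without RT replicate 1. It was 5 with a replicate block and 9 without a filter for low counts.

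Between the cell lines the heat effect differed for 471 of 17219 genes (2.74%) at an adjusted p under 0.05 and a difference beyond 1 on the log2 scale. The genes named were mostly chosen by their change in SAS, which favours a larger change there, so their differences give no share or direction for genes in general. IER3 fell in SAS (-1.59) and rose in FaDu (1.49), a difference of -3.11 (SE 0.21, edgeR adjusted p = 7.30e-07), and EGR3 fell in SAS (-0.52) and rose in FaDu (4.45), a difference of -5. These 2 early genes moved in opposite directions in the lines. STAT2 and COL1A1 rose in SAS by 1.72 and 4.18 and had -0.21 and 0.39 in FaDu, with differences of 1.9 and 3.76. IFIT2 and IL1A fell in SAS, and their changes in FaDu were -0.02 and 0, with differences of -1.66 and -1.45. Among chaperone genes CRYAB, whose difference has no exact size for want of a Control count, HSPB8 (difference 3.4), SERPINH1 (1.7), DNAJB4 (1.47), BAG3 (1.39) and HSPH1 (1.25) rose further in SAS and HSPA6 (-1.98) less far. Smaller differences passed the adjusted p too, such as those of HSPB1 (0.92), FKBP4 (0.78) and DNAJB1 (-0.76), while HSPA1A (-0.27) and HSPA1B (-0.35) did not pass.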

How the data were processed

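RNA-Seq was used on 3 SAS Control and 3 SAS HT spheroid libraries, with SAS RT, SAS RT+HT and FaDu libraries for tests of differences. Total RNA went into directional libraries, was sequenced by a contractor and was demultiplexed with bcl2fastq. The authors deposited raw counts of reads per gene and a normalized signal, which is the counts divided by 1 DESeq2 size factor per library by the authors, for the 14810 genes with over 60 summed counts. The aligner, counting program, annotation and strand setting are not given. The labels name the genome build mm9, a mouse build, while the 57500 gene IDs are human, so no gene coordinates are taken from the files. Of these IDs 56898 were found in GENCODE v29, which gave names, types, neighbours and structure, and 602 were not. Promoters are from RefSeq GRCh38.p14.

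Counts were tested in R 4.3.3 with edgeR 4.0.16 (TMM, filterByExpr with a minimum count of 10, quasi-likelihood test, Benjamini-Hochberg adjustment over all genes tested). Standard errors come from the ratio of the log2 fold change to the root of F. Levels are CPM with TMM factors over the 12 SAS libraries. Total counts were 17797336 to 19645956 in Control and 18976390 to 20811396 in HT, and replicates differed by more than counting error (chi-square per gene 4.32 to 10.6). Differences by irradiation and by line were tested as interactions. Alternatives used DESeq2 1.42.0, limma 3.58.1 on the deposited signal, glmTreat, RLE, upper quartile and library size scaling, other filters, all 4 SAS groups in 1 fit, a replicate block and leaving out each library. The steps were tested on simulated data.

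Named genes were the 12 altered genes highest and the 12 lowest by log2 fold change, given separate groups and a mean log2 CPM not under 1, the highest and lowest past the adjusted p (up to 3 each way) and the most abundant of each list and family, the 5 most abundant called in each direction, and the genes the study names. Some genes chosen in this way are not reported here. Genes named only for a gain, a motif, a neighbour or an interaction were picked once their values had been seen. Members and lists were chosen with earlier results of these data known.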

Additional observations from a re-analysis of the deposited data

Results flagged for a closer look

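For 41 of the 202 named genes the heat effect differed between SAS and FaDu by the edgeR interaction test (adjusted p under 0.05 and a difference beyond 1 on the log2 scale). Values are the log2 fold change in SAS minus that in FaDu. Most of these genes were chosen by their change in SAS, so their number and the balance of signs are not results. CRYAB, RFPL2 and PNLDC1 had no Control count in SAS, so their differences are fitted values without an exact size. Among chaperone genes and their neighbours the difference was 7.43 for CRYAB, 3.4 for HSPB8, 1.7 for SERPINH1, 1.47 for DNAJB4, 1.39 for BAG3, 1.25 for HSPH1, -1.98 for HSPA6 and -3.32 for HSPA7. Among early genes and signal regulators it was -5 for EGR3, -3.11 for IER3, -3.02 for FOS, -2.4 for ATF3, -1.55 for PPP1R15A, -1.43 for BTG2, -1.32 for DUSP5, 1.71 for SPRED3, 1.99 for RGS2, 1.62 for NFKBIZ, 1.93 for ID1, 2.4 for BMP4 and 1.33 for CDKN2C. For inflammatory and interferon genes it was -1.45 for IL1A, -1.66 for IFIT2 and 1.9 for STAT2.

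Genes near silence in SAS Control had large differences, 8.5 for RFPL2, 6.96 for PNLDC1, 4.03 for AP4B1-AS1, 3.84 for RFTN2, 3.76 for COL1A1, 3.59 for COL2A1 and 3.05 for PPP1R3C. The others were 2.17 for HMOX1, 1.81 for SLC30A1, 1.72 for CLK1, 1.65 for CLK4, 1.66 for ZNF761, 1.59 for ZNF799, 1.27 for HIST1H2BD, 1.04 for SNORD104, -1.91 for HCAR3 and -3.47 for SNORA31. The heat effect on DUSP2 differed by -1.25 between irradiated and unirradiated SAS spheroids. No test was made for a single library far from the others in its group of 3.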

How the results depend on the processing

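The number of altered genes stayed within 1.5 times of the reported one except in these cases. With at least 10 counts in every library 512 genes were altered, 432 of them upward, and 584 in RT+HT against RT, with 368 shared, since that filter drops genes silent in Control. With glmTreat, which tests against a log2 fold change of 1 itself, 393 were altered, 382 upward and 11 downward. With library size only 2774 genes were lower at the adjusted p. The interaction of heat and irradiation held 3 genes with DESeq2, 9 without a filter and 5 with the replicate block, and the cause was not tested. Of the 904 altered genes 834 were among the 836 of DESeq2, 812 among the 829 of limma and all 393 of glmTreat were among them.

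Leaving out each library in turn gave 815 to 939 altered genes, 715 to 842 upward and 93 to 114 downward, 1440 to 1704 upward and 1228 to 1546 downward at the adjusted p alone, 959 to 1085 in RT+HT against RT, 616 to 691 shared, 0 to 2 in the interaction with irradiation and 368 to 523 in that with line. With the replicate number as a block 915 genes were altered, and at the adjusted p alone 2193 were higher and 2220 lower, so the falling side became the wider one. Residuals of Control and HT libraries of the same number correlated across genes at r = 0.03, 0.08 and 0.18, and HT replicate 1 correlated best with Control replicate 2 (0.06), while replicate 3 of all 4 SAS groups lay apart on the second principal component. The replicate number thus carries part of the variation, most clearly in replicate 3.

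Over 202 named genes and 2995 values, 2804 kept direction and side of the threshold, 158 lost the call, 23 gained it and 10 changed sign; 33 genes lost a call at least once. Changes of sign were all in genes that had not passed: with library size only ENO1 -0.03, H3F3B -0.05, ID1 -0.04, PSMD2 0 and ZNF664 -0.03, by the lower scale it sets; CDH5 -0.15 without Control replicate 3 and -0.2 without HT replicate 2 (range -0.2 to 0.4), H3F3B -0.01 and -0.02 without the same libraries (range -0.02 to 0.07), and ID1 0 without Control replicate 2 (range 0 to 0.1). With 3 libraries a group of 17797336 to 20811396 counts, changes of genes with few counts are limited by depth. For a gene without Control counts only the fold against the floor of 3 counts is a lower bound. Its fitted log2 fold change has no exact size.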
